A study of Homo sapiens with 6 samples.

Results

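The 40 genes described here encode the actin filament, podosome and phagocytosis machinery: the Arp2/3 complex and its activators, coronins, actin monomer binding proteins, capping and cross-linking proteins, elongation factors, annexins, myosins, adhesion proteins and both cytoplasmic actins. They were chosen by name, were all found among the 30017 genes of the count table, and all passed the filter on low counts, which left 14758 genes. The RNA came from BLaER1-CTCF-mAID cells, derived from a human B cell leukemia line that converts into macrophage-like cells (iMacs) when exogenous CEBPA is activated. In this subclone the architectural DNA binding protein CTCF is fused to a degron, and adding the auxin IAA leads to its degradation. The study asked how contacts between enhancers and promoters relate to gene expression during the conversion, with and without CTCF. It also mapped chromatin contacts and protein binding, which were not analysed here.

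The 6 libraries formed 3 groups of 2 biological replicates. The 0 h cells were collected before induction and received neither the factors nor IAA. The 96 h control cells received the transdifferentiation factors (17β-estradiol, IL-3 and CSF-1) and no IAA. The 96 h CTCF-depleted cells received the same factors and IAA from the start. All groups carry the degron and the exogenous CEBPA and come from 1 subclone. A line without the degron treated with IAA was not analysed here, so that effects of IAA and of CTCF loss cannot be told apart.

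Actin filaments form when the Arp2/3 complex, switched on by WASP and WAVE family proteins, starts a new branch on an existing filament, while formins and Ena/VASP proteins lengthen unbranched ones. Thymosins and profilin hold the pool of monomers, cofilin and gelsolin cut filaments, and plastin, filamin and alpha-actinin tie them together. Macrophages use this machinery to build phagocytic cups and podosomes, adhesion structures with a branched actin core and a ring of talin, vinculin and zyxin. B cells use it at the immune synapse.

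Short promoter stretches are shown for some of the members in which a site of a factor tied to actin genes or to macrophages was found. The 250 bases before each RefSeq gene start (GRCh38.p14) were searched on both strands for the CArG box, which binds SRF, for AGGAAGT, a PU.1 motif, and for TTGCGNAA, a C/EBP motif. These covered 56 windows of 34 members, and no member held more than 1 of the motifs. The CArG box was present in 3 member windows (5.36%) and in 1.16% of all 35116 windows. In the stretches below, on the strand of the gene, its letters are in capitals.
ACTG1, chr17:81512859-81512918, minus strand: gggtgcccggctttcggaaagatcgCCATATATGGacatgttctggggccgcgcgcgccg
ACTN1, chr14:68977703-68977762, minus strand: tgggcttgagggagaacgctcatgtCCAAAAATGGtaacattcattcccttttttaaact
FLNA, chrX:154374694-154374753, minus strand: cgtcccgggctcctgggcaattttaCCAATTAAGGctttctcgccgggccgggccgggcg

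AGGAAGT was present in 7 member windows (12.5%), those of CORO1B, GSN, LCP1, MYO1F, MYO1G, PFN1 and WIPF1, and in 7.01% of all windows. Stretches of the 3 genes among them that rose are given below, with the motif or its reverse complement in capitals. LCP1 held 2 matches, 39 and 185 bases before the start, and the farther one is shown. The MYO1F stretch lies before the RefSeq start but overlaps an annotated MYO1F exon in GENCODE 44. The C/EBP motif was present in 1 member window, that of WAS (1.79%), and in 0.752% of all windows. Of the members with a motif, ACTG1, CORO1B, GSN, PFN1, WIPF1 and WAS did not pass both thresholds, given below, from 0 h to control. A match is a description of the letters and shows no binding, and a link between motif and change was not tested.
MYO1F, chr19:8577455-8577481, minus strand: ctcccgccaaAGGAAGTgagaaggggc
MYO1G, chr7:44979089-44979115, minus strand: actagaacccACTTCCTactttacacc
LCP1, chr13:46182353-46182379, minus strand: aaaaaaaaagAGGAAGTggtaggaggt

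Total counts ranged from 9273470 to 12718780 per library. The 10 B cell markers summed to 2775 and 2791 normalised CPM (scaled read counts) at 0 h, to 424 and 434 in control and to 440 and 454 in CTCF-depleted libraries. The 10 macrophage markers summed to 35.3 and 39.3 CPM at 0 h, to 5095 and 5344 in control and to 4963 and 4998 in CTCF-depleted libraries. The macrophage and B cell markers thus move with the time point, and the part of this shift in each result from 0 h to 96 h was not tested. Single markers also differed between the 96 h groups. By the thresholds given below, CD22 and ITGAM rose without CTCF, while VPREB1, IGLL1 and MRC1 fell. The T and NK cell list summed to 2.68 and 2.93 CPM at 0 h and to at most 37.3 CPM at 96 h. In this list CD4 and NKG7 rose from 0 h to control, while CD3D and CD3G had 0 counts in every library. The erythroid list summed to 0, the fibroblast list to at most 11.5 CPM and the epithelial list to at most 0.463 CPM. CTCF mRNA was 222, 177 and 190 CPM on average at 0 h, in control and in CTCF-depleted cells. Its difference between the 96 h groups was 0.10 on the log2 scale (SE 0.05, edgeR adjusted p = 0.119), and this checks nothing about a degron that acts on the protein.

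CPM here are read counts relative to the library total after scaling with edgeR's TMM factor. Fold changes come from edgeR's quasi-likelihood test over 14758 genes, and a gene is said to rise or fall where the adjusted p was under 0.01 and the log2 fold change beyond 0.6 in either direction. Each mean is over 2 libraries, and a permutation test of 2 against 2 cannot go below a two-sided p of 0.333. In these bulk samples, fewer cells of a type and less RNA per cell cannot be told apart.

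From 0 h to 96 h control, 23 of the 40 genes rose and 2 fell. Over all genes tested, 25.4% rose and 22.9% fell. The median log2 fold change of the 40 genes was 0.72, with ANXA1 at its lower bound, and 0.02 over all genes. The genes are abundant, with a median of 8.06 on the log2 CPM scale against 4.59 for all genes tested, and the part of abundance in these counts was not tested. Together the 40 genes took 1.41% ± 0.0566 (SD, n = 2) of all counts at 0 h, 2.31% ± 0.0198 in control and 2.07% ± 0.0314 in CTCF-depleted libraries. ANXA1 and LSP1 had fewer than 10 counts in a 0 h library. ANXA1, with no counts at 0 h, passed the filter through the 96 h libraries.

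**Figure D1:**
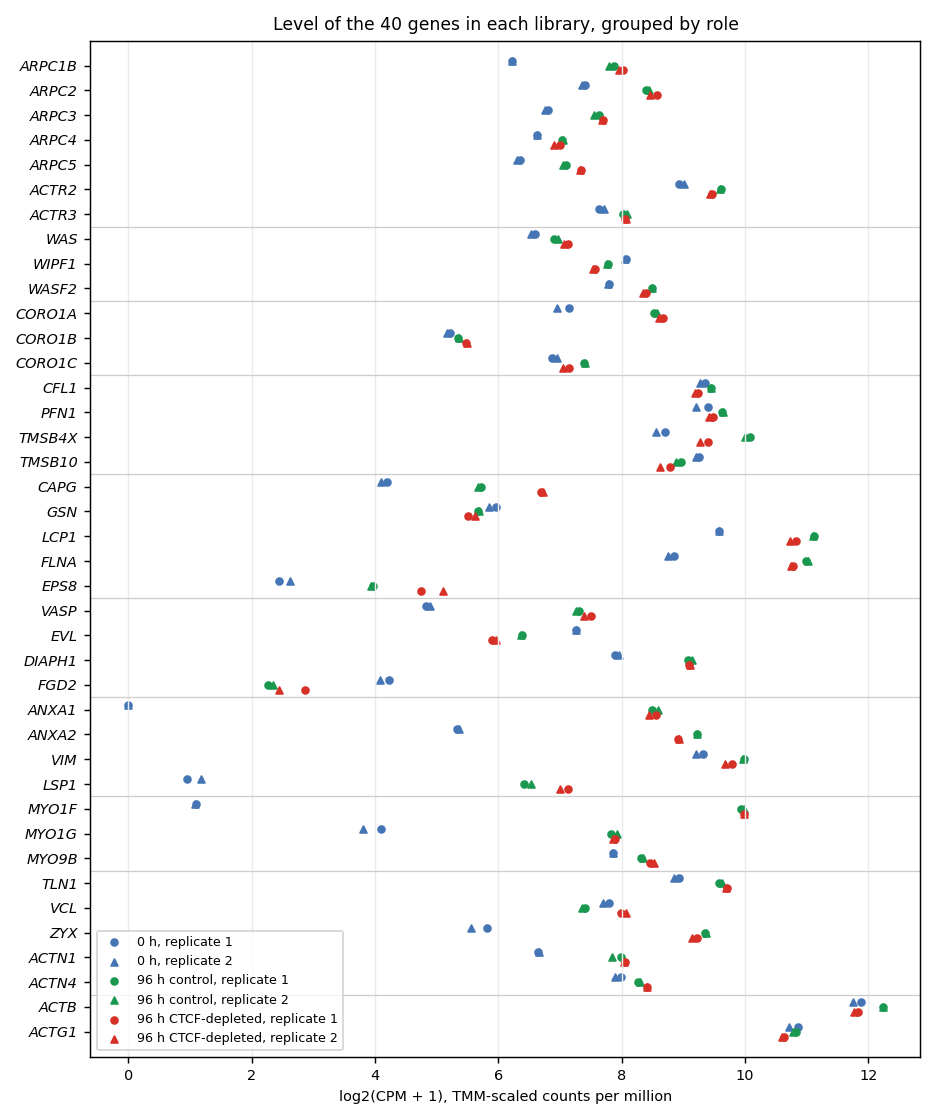
Level of the 40 genes in each of the 6 libraries, as log2(CPM + 1) on the horizontal axis, with genes grouped by role between grey lines. Colours mark the 3 groups and symbols the replicates; ANXA1 lies at 0 in both 0 h libraries, and ACTB is highest in every library.

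Between the 96 h groups, 3 of the 40 genes rose without CTCF (CAPG, EPS8 and VCL), 1 fell (TMSB4X) and 36 did not pass both thresholds. Over all genes tested, 5.41% rose and 7.03% fell, so that both counts lie near or under the background. The median log2 fold change was -0.003 over the members and -0.03 over all genes, and 20 of the 40 members lay above 0. The libraries of the 2 groups did not overlap for 35 members (87.5%), as for 67.9% of all genes. From 0 h to 96 h CTCF-depleted, 21 genes rose and 2 fell, where 27.2% and 25.2% of all genes did. That comparison shares its 0 h libraries with the control comparison, so its values are given beside the others and not as a second line of evidence.

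**Figure D2:**
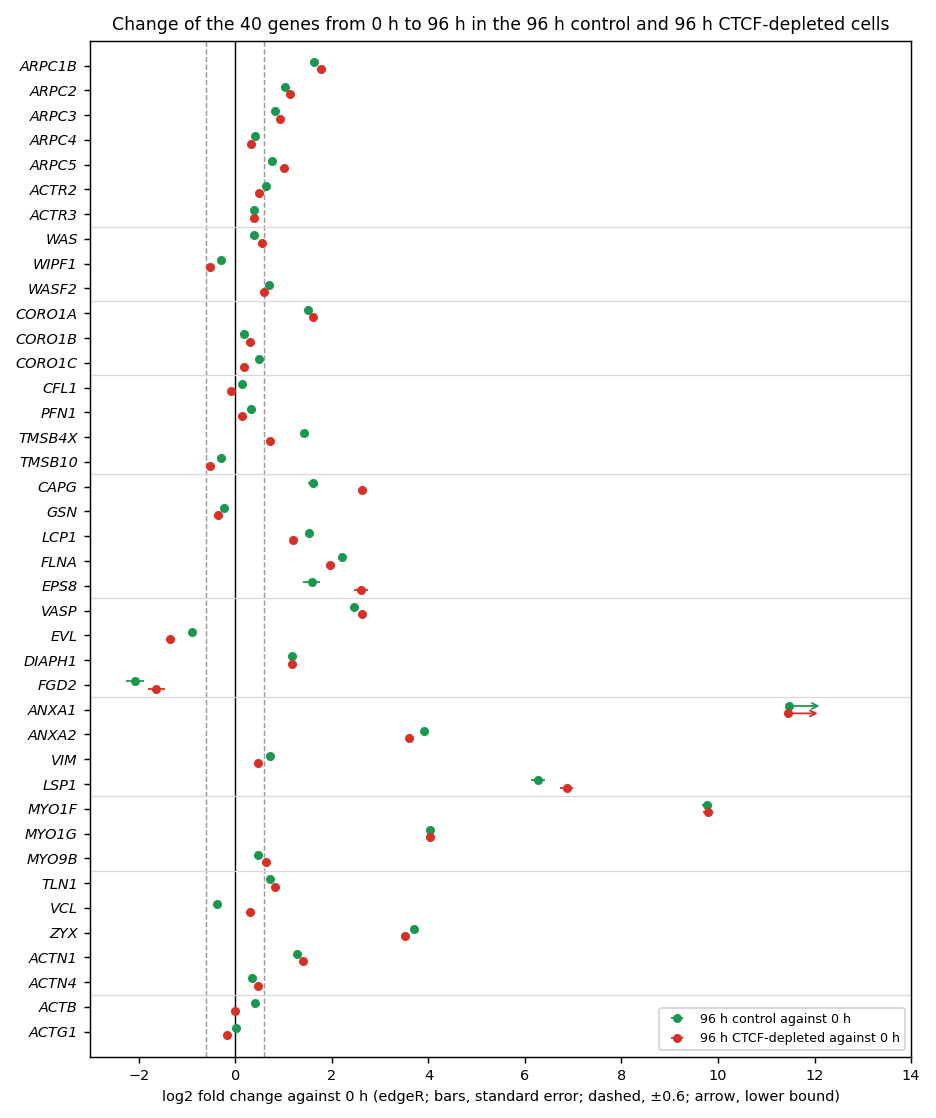
Log2 fold change of each of the 40 genes against 0 h in 96 h control (green) and 96 h CTCF-depleted cells (red), with standard errors. Dashed lines mark 0.6 in both directions, and ANXA1 is drawn at its lower bound with arrows, since it had no counts at 0 h.

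The Arp2/3 complex nucleates branched filaments. Of its 7 members listed, 5 rose from 0 h to control, and 0 passed both thresholds between the 96 h groups with edgeR or DESeq2, with 4 at an unadjusted edgeR p under 0.05. ARPC1B, which carries the WD repeats of the complex, rose most. It was 73.9 and 73.6 CPM at 0 h, 235 and 221 in control and 258 and 247 in CTCF-depleted libraries, a log2 fold change of 1.63 (SE 0.06) to control. ARPC2, a core subunit, rose by 1.03, ARPC3 by 0.82 and ARPC5 by 0.76. ACTR2, which with ACTR3 mimics the first monomers of the branch, rose by 0.64 (0.52 with library totals in place of TMM and 0.59 at the lowest when 0 h replicate 1 or control replicate 1 was left out, both under the threshold), while ACTR3 was at 0.38 and ARPC4 at 0.42, both under the fold threshold. ARPC4 overlaps the readthrough gene ARPC4-TTLL3 on its own strand and TADA3 on the other, so its level is uncertain. ARPC1B and ARPC3, which rose, also overlap another annotated gene on their own strand, and the same limit holds for them. Without CTCF the 7 log2 fold changes against control ranged from -0.16 for ACTR2 to 0.25 for ARPC5.

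Among the activators of Arp2/3, WASF2, the WAVE2 protein, rose by 0.71 (SE 0.05), from 220 ± 0.909 to 360 ± 1.82 CPM (SD, n = 2), and stood at 0.59 with library totals, under the threshold. WAS, the haematopoietic Wiskott-Aldrich protein of podosome cores, was at 0.38 and WIPF1, the protein that stabilizes it, at -0.30. WIPF1 was 269 and 266 CPM at 0 h, 218 and 215 in control and 188 and 185 in CTCF-depleted libraries. The 3 groups of WIPF1 did not overlap, but its fold changes were under the threshold in every comparison with TMM scaling. The log2 fold changes without CTCF were 0.17 for WAS, -0.22 for WIPF1 and -0.12 for WASF2.

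The coronins, which act on branched networks and on their turnover, differed from one another. CORO1A, the leukocyte form, rose by 1.51 (SE 0.05), from 132 ± 12.6 to 375 ± 8.48 CPM, and was at 399 ± 11.4 CPM without CTCF. CORO1B was at 0.17 (adjusted p = 0.0563, edgeR) and CORO1C at 0.49, and neither passed both thresholds. Per kilobase of transcript, CORO1A made up 67.3% ± 2.62 of the 3 coronins at 0 h, 81.3% ± 0.202 in control and 84.4% ± 0.121 in CTCF-depleted libraries. CORO1B overlaps PTPRCAP on its own strand, so its level and this share are uncertain. Without CTCF, CORO1C lay 0.31 lower on the log2 scale.

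The 4 proteins that hold or release actin monomers held the single member that fell without CTCF. TMSB4X, the thymosin that sequesters monomers, was 414 and 375 CPM at 0 h, 1080 and 1026 in control and 673 and 618 in CTCF-depleted libraries. It was lowest at 0 h and highest in control, and the 3 groups did not overlap. It rose by 1.42 (SE 0.05, adjusted p = 2.66e-33, edgeR) to control, and without CTCF it was 1.63-fold lower than control (log2 fold change -0.71, SE 0.05, adjusted p = 1.26e-18, edgeR). TMSB4X lies at chrX:12975110-12977227 on the plus strand of hg38.

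TMSB10, the related thymosin, ran from 608 and 589 CPM at 0 h to 498 and 472 in control and 439 and 395 without CTCF. Its log2 fold changes were -0.30 and -0.22, under the threshold. Per kilobase, TMSB4X made up 32.8% ± 1.05 of both thymosins at 0 h, 61.7% ± 0.0676 in control and 53.4% ± 0.355 without CTCF. Profilin 1 (PFN1), which feeds monomers to growing ends, was at 0.33 to control and -0.19 without CTCF. Cofilin 1 (CFL1), which severs old filaments, was at 0.14 and -0.24. TMSB4X, TMSB10, CFL1, PFN1 and both actins have processed copies elsewhere in the genome, and how reads shared with these were counted is not known, so their levels are uncertain.

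Among the proteins that cap, cut, bundle or cross-link filaments, 4 of 5 rose to control, and 2 of them lay higher again without CTCF. CAPG, the macrophage capping protein of barbed ends, was 17.4 and 16.2 CPM at 0 h, 51.5 and 50.2 in control and 102 and 105 in CTCF-depleted libraries. The groups did not overlap, and the step from control to depleted was a 2.04-fold rise (log2 1.03, SE 0.07, adjusted p = 1.34e-17, edgeR), after a rise of 1.60 (SE 0.09) from 0 h to control. CAPG lies at chr2:85394753-85418432 on the minus strand.

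EPS8, which caps and bundles filaments and links them to Rac signalling, was present at low level. It had 4.44 and 5.18 CPM at 0 h, 14.7 and 14.4 in control and 25.8 and 33.3 without CTCF. The depleted libraries were the highest and also differed most between replicates. The rise to control was 1.58 (SE 0.17) and without CTCF a further 1.02 (SE 0.13, adjusted p = 1.38e-09, edgeR), a 2.03-fold difference. EPS8 lies at chr12:15620134-15882329 on the minus strand.

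LCP1, the leukocyte plastin that bundles filaments, rose by 1.53 (SE 0.05) to 2206 ± 20.6 CPM and was at 1754 ± 78.0 CPM without CTCF (log2 fold change -0.33). FLNA, filamin A, which cross-links filaments into gels, rose by 2.22 (SE 0.05), from 444 ± 21.0 to 2060 ± 26.4 CPM, and differed by -0.24 without CTCF. GSN, gelsolin, which severs and caps, was at -0.23 to control and -0.12 without CTCF, under the fold threshold. Per kilobase, CAPG made up 37.1% ± 0.202 of the CAPG and GSN pair at 0 h, 67.8% ± 0.487 in control and 82.3% ± 0.641 without CTCF.

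**Figure D3:**
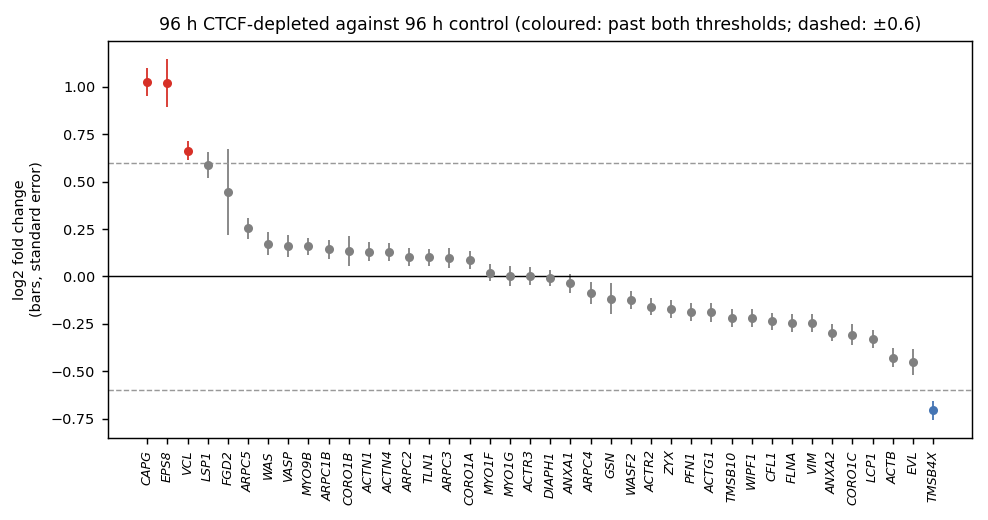
Log2 fold change of 96 h CTCF-depleted against 96 h control for the 40 genes, ordered by size, with standard errors. Dashed lines mark 0.6 in both directions; CAPG, EPS8 and VCL (red) lie above and TMSB4X (blue) below, and LSP1 at 0.59 lies just inside the upper line.

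The factors that lengthen filaments split in opposite directions. VASP rose by 2.47 (SE 0.07), from 28.1 ± 0.964 to 156 ± 3.65 CPM, whereas its relative EVL fell by 0.90 (SE 0.06). EVL was 153 and 153 CPM at 0 h, 82.3 and 81.2 in control and 58.4 and 61.2 without CTCF, with no overlap of the groups. Its difference without CTCF was -0.45 (SE 0.07), under the fold threshold. Per kilobase, VASP made up 13.1% ± 0.365 of VASP and EVL at 0 h, 60.9% ± 0.325 in control and 70.4% ± 1.85 in depleted libraries.

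DIAPH1, a formin that lengthens unbranched filaments, rose by 1.18 (SE 0.05) and was at -0.008 without CTCF. FGD2, an exchange factor that activates Cdc42, had the largest fall of the 40 genes. It was 17.7 and 15.9 CPM at 0 h, 3.80 and 4.07 in control and 6.30 and 4.42 without CTCF. The fall to control was 4.25-fold (log2 fold change -2.09, SE 0.19), and the depleted libraries were both above control, by 0.45 (SE 0.23, adjusted p = 0.121, edgeR).

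The largest rises were among the annexins, LSP1 and the class I myosins. ANXA1, a calcium-dependent membrane binding protein found in phagocytes, had 0 counts in both 0 h libraries and 361 and 383 CPM in control and 378 and 347 CPM without CTCF. Against a floor of 3 counts over the 0 h group, ANXA1 was at least 2853-fold higher in control and at least 2780-fold higher without CTCF. Between the 96 h groups the libraries overlapped, at -0.04 (SE 0.05, adjusted p = 0.584, edgeR).

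ANXA2, which links membranes to actin, was 39.3 and 40.3 CPM at 0 h, 596 and 598 in control and 484 and 488 without CTCF. It rose by 3.90 (SE 0.06) to control and lay 0.30 lower without CTCF on the log2 scale, a difference larger than the spread between replicates but under the fold threshold. VIM, vimentin, the intermediate filament protein, rose by 0.73 to control (SE 0.05) and was at -0.25 without CTCF.

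LSP1, a leukocyte protein that binds filaments in podosomes, was 0.928 and 1.28 CPM at 0 h, 85.0 and 92.0 in control and 139 and 128 without CTCF. The rise to control was 6.28 (SE 0.15). Without CTCF both libraries were above both control libraries, by 0.59 (SE 0.07, adjusted p = 3.52e-10, edgeR), just under the fold threshold of 0.6. It passed the threshold in other fits, DESeq2 and one without control replicate 2 among them. LSP1 overlaps PRR33 on the opposite strand, and the strand setting of the counting is not known. It also overlaps MIR7847 and another annotated gene on its own strand, so its level is uncertain.

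MYO1F, a membrane-bound myosin of leukocytes, was 1.13 and 1.13 CPM at 0 h, 980 and 1015 in control and 1012 and 1011 without CTCF. It rose by 9.77 (SE 0.10), the largest fitted change after that of ANXA1, and was at 0.02 without CTCF. MYO1G, another haematopoietic class I myosin, went from 16.2 and 13.0 CPM at 0 h to 227 and 242 in control and 238 and 232 in CTCF-depleted libraries. It rose by 4.03 (SE 0.08), and its 96 h groups overlapped. MYO9B, an unconventional myosin, was at 0.48 to control and at 0.16 without CTCF.

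Against 0 h, the CTCF-depleted cells had these log2 fold changes in members where the step between the 96 h groups was largest: 2.63 for CAPG, 0.71 for TMSB4X, 6.87 for LSP1, -1.36 for EVL and -1.64 for FGD2. EPS8 was 6.07-fold higher than at 0 h. VCL stood at 0.29 and ACTB at -0.01, neither of which passed. MYO9B passed at 0.64 in this comparison (0.55 with library totals, under the threshold), whereas ACTR2 at 0.48, WASF2 at 0.58 and VIM at 0.48 were under it. WASF2 reached up to 0.64 and passed with at least 10 counts in every library and without 0 h replicate 1 or CTCF-depleted replicate 2, and WAS, at 0.55, reached up to 0.62 and passed without either of these libraries. These values share the 0 h libraries with those of control.

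In the adhesion and podosome ring group, 3 of 5 genes rose to control. ZYX, zyxin, which recruits VASP to adhesions, rose by 3.70 (SE 0.06), from 50.9 ± 6.47 to 655 ± 3.54 CPM. TLN1, talin, which activates integrins, rose by 0.71 (0.59 with library totals), and ACTN1, alpha-actinin 1, by 1.27. ACTN4, the other alpha-actinin, was at 0.34. ACTN1 made up 35.3% ± 1.16 of both alpha-actinins per kilobase at 0 h and 51.0% ± 2.10 in control. Without CTCF the log2 fold changes were -0.17 for ZYX, 0.10 for TLN1, 0.13 for ACTN1 and 0.13 for ACTN4.

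VCL, vinculin, which joins talin to actin, was the member that rose without CTCF after no call from 0 h to control. It was 221 and 206 CPM at 0 h, 168 and 162 in control and 255 and 269 in CTCF-depleted libraries. The depleted libraries were above those of both other groups, and control was lowest. The log2 fold change was -0.37 (SE 0.05) from 0 h to control and 0.66 (SE 0.05, adjusted p = 8.99e-17, edgeR) without CTCF, a 1.58-fold rise. VCL lies at chr10:73995193-74121363 on the plus strand and overlaps another annotated gene on its own strand, so its level is uncertain. It also overlaps AP3M1 on the other strand, whose own difference was 0.04 (adjusted p = 0.684, edgeR).

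The cytoplasmic actins did not pass the thresholds in any comparison. ACTB was 3770 and 3459 CPM at 0 h, 4809 and 4816 in control and 3666 and 3490 without CTCF. The control libraries were the highest, and the 0 h and depleted groups overlapped. Its log2 fold changes were 0.41 (SE 0.05) to control and -0.43 (SE 0.05) without CTCF. ACTG1 was 1866 and 1676 CPM at 0 h, 1826 and 1756 in control and 1586 and 1557 without CTCF, with log2 fold changes of 0.02 (SE 0.05) to control, which turned to -0.10 with library totals in place of TMM, and -0.19 (SE 0.05) without CTCF. Per kilobase, ACTB made up 68.4% ± 0.324 of both actins at 0 h, 74.0% ± 0.545 in control and 70.7% ± 0.443 without CTCF.

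**Figure D4:**
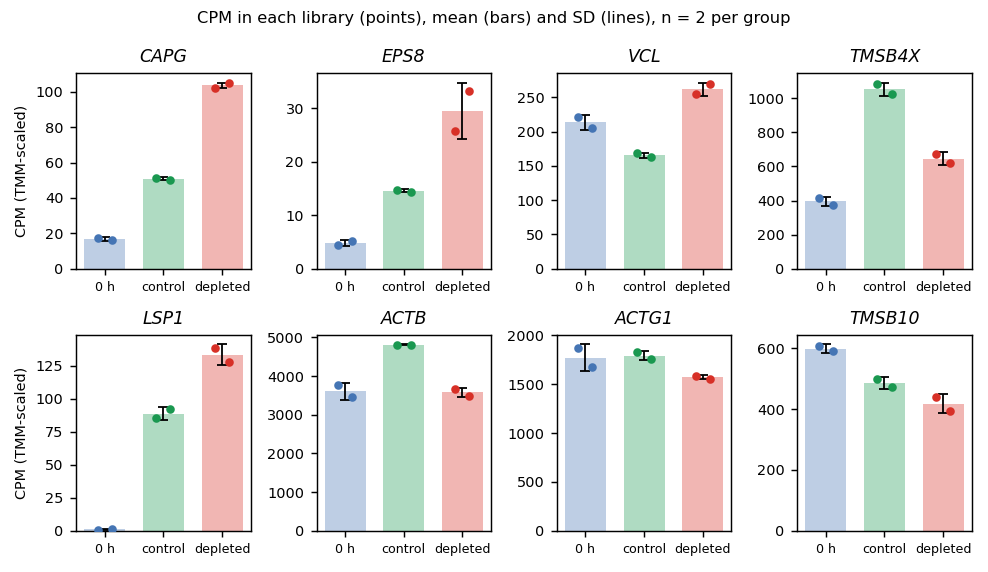
CPM of the 4 members past both thresholds without CTCF, of LSP1, of both actins and of TMSB10 in each library (points), with the mean (bars) and SD (lines) of 2 libraries. Each panel starts at 0 and has its own scale; for CAPG, EPS8 and VCL both depleted libraries lie above both control libraries, and for TMSB4X below.

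Other genes of the pathway were followed as lists, each counted over the genes tested. Beside them stand 25.4% of all genes that rose and 22.9% that fell to control, 5.41% and 7.03% without CTCF, and a median log2 fold change to control of 0.02. Counts near these shares say nothing particular about a list. Of 17 other Arp2/3 subunits and WASP or WAVE partners, 4 rose and 4 fell to control (median -0.22), close to the shares of all genes, and without CTCF ABI3, a subunit of the WAVE complex, fell by 0.96. CYFIP2, of the same complex, fell by 1.79 to control and HCLS1, the leukocyte relative of cortactin, rose by 1.37.

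Of 8 other formins, 2 rose and 3 fell to control (median -0.33), with FMNL1, a formin of leukocytes, at 3.24 and DAAM1 at -1.79. DIAPH3 and DAAM1 fell without CTCF, by 0.88 and 0.61. Of 11 myosin motor and light chain genes, 4 rose and 3 fell to control (median 0.19), among them MYH10, a non-muscle myosin heavy chain, at -4.57, which also fell without CTCF, by 0.70. Of 32 other turnover, capping and bundling genes, 10 rose and 6 fell to control (median 0.32). PLS3, the plastin related to LCP1, fell by 5.03 and AIF1, a bundling protein of macrophages, went from 0.267 ± 0.0597 to 18.1 ± 1.38 CPM. Without CTCF, the profilin PFN2 rose by 1.09 and SWAP70 and CORO2A fell by 0.82 and 0.77.

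Of 21 other adhesion and membrane linker genes, 11 rose and 1 fell to control (median 0.66). Without CTCF 0 of the 21 passed with edgeR or DESeq2, and 14 had an unadjusted edgeR p under 0.05, where few calls would be made at the share of all genes. MMP14, a membrane protease, rose by 4.74 to control. Of 5 other annexins, 4 rose to control (median 0.88), with ANXA6 at 1.40 and ANXA7 at 1.00. Without CTCF 0 of the 5 passed with edgeR or DESeq2, and 2 had an unadjusted edgeR p under 0.05. The share of all genes under that p is not given here, so the counts of 14 and 2 are not read as results. With adjusted p below 0.01 and no fold threshold, 10 of the 21, 2 of the 5 and 4341 of all 14758 genes passed without CTCF. Of 9 SRF-linked genes, 4 rose and 1 fell to control (median 0.44), with CNN2, a calponin, at 2.84 and TAGLN, transgelin, at 1.91. Without CTCF, ELK3, a partner of SRF, rose by 0.71 and TAGLN fell by 0.80. DESeq2 did not call TAGLN (adjusted p = 0.133) or DAAM1 (adjusted p = 0.0335) in that comparison.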

How the data were processed

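RNA-seq of 6 libraries was used. The authors aligned reads to hg38 with STAR 2.6.1d and deposited raw counts per gene, made with featureCounts 2.0.6 from a stranded total RNA kit. The methods describe counting over exons of protein-coding genes, but the table also lists noncoding genes. The annotation release and the strand setting are not given in the sources used here. Reads carry no molecular identifiers, so that floors cover counting error only.

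Counts were fitted in R 4.3.3 with edgeR 4.0.16 (filterByExpr, TMM, quasi-likelihood, condition as the only term, all 6 libraries), with Benjamini-Hochberg adjustment over 14758 genes. The fit was tested on simulated data. Positions and transcript lengths came from GENCODE 44, with levels per kilobase of the canonical transcript. Alternatives were DESeq2 1.42.0, other scaling, filters and thresholds, a replicate block, fewer libraries, and each library left out.

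The members and lists were chosen with earlier results of these data known. Values in every library are given for members past both thresholds without CTCF, for the 5 members with the largest change in each direction to control, and for actins and thymosins. From each list up to 3 genes called without CTCF and up to 2 called to control, by size of change, are named. Some genes and 1 list that these rules cover are not reported here. Neighbours, AP3M1, ARPC1A, ARPC5L and ACTR3B were chosen after their values were seen.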

Additional observations from a re-analysis of the deposited data

How the results depend on the processing

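The member counts rest on 2 libraries a group and on the fold threshold. With adjusted p below 0.05 and no fold threshold, 6 members lay lower from 0 h to control, 11 higher and 16 lower without CTCF, and 32 higher and 6 lower from 0 h to CTCF-depleted. The share of all genes at that cutoff is not given here, so these counts are not read as results. At adjusted p below 0.01 and no fold threshold, 21 of the 40 members and 4341 of all 14758 genes passed without CTCF. These numbers were 38 and 10068 from 0 h to control, and 38 and 10473 from 0 h to CTCF-depleted. The part of abundance in them was not tested. With an absolute log2 fold change above 1, 17 members were higher and 1 lower to control, and 2 higher and 0 lower without CTCF. With library totals in place of TMM, 20 were higher to control, 4 higher without CTCF, and 20 higher and 4 lower from 0 h to CTCF-depleted. With these totals the median of all genes from 0 h to control moved by -0.12, with 45.4% in place of 52.6% of calls higher. Leaving out each library gave 22 to 23 higher and 2 lower to control, 3 to 4 higher and 1 lower without CTCF, and 21 to 23 higher and 2 lower from 0 h to CTCF-depleted. Outside the changed thresholds, 22 of 25 calls to control, 4 of 4 without CTCF and 22 of 23 from 0 h to CTCF-depleted were kept in every alternative. Of 17 members not called from 0 h to CTCF-depleted, WAS, WASF2, WIPF1 and TMSB10 passed in at least 1 alternative, the last pair with library totals. LSP1 ranged from 0.57 to 0.68 without CTCF, and passed the threshold under DESeq2, RLE, library totals, no filter, the 4 libraries compared, and without control replicate 2 or CTCF-depleted replicate 2.

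The replicate block left the counts at 23 and 2, 3 and 1, and 21 and 2. The labels do not say whether same-numbered libraries were handled together. Their deviations correlated at -0.0194, 0.0109 and -0.0294 over all genes, which with 2 libraries a group cannot decide it.

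The sign of uncalled members near 0 turned. DIAPH1 without CTCF was 0.0043 with DESeq2, 0.0054 with RLE, 0.029 with library totals, 0.024 with no filter, 0.0056 with at least 10 counts in every library and 0.025 with the 4 libraries compared. ACTG1 to control was -0.10 with library totals and -0.021 with no filter. ACTB from 0 h to CTCF-depleted was 0.0058 with at least 10 counts. Leaving out a library gave -0.10 to 0.088 for ACTG1 to control, -0.086 to 0.076 for ACTB from 0 h to CTCF-depleted, and without CTCF -0.0024 to 0.072 for ACTR3, -0.0019 to 0.049 for DIAPH1, -0.061 to 0.054 for ANXA1 and -0.010 to 0.083 for MYO1G. The cause was not tested.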

Other observations

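Genes that start within 250 kb of the members that changed without CTCF, and of LSP1, which did not pass, were read in the same comparison. The log2 fold changes ranged from -0.50 to 0.24 for the 11 genes tested near CAPG, from 0.18 to 0.45 for the 2 near EPS8, from -0.59 to 0.70 for the 10 near VCL and from -0.51 to 0.27 for the 4 near LSP1. STRAP, whose start is 58 bases from that of EPS8, was at 0.45 (adjusted p = 1.21e-08, edgeR). Of the 4 genes near TMSB4X, TLR7, a receptor for single-stranded RNA, fell by 0.72 (SE 0.11, adjusted p = 3.56e-07, edgeR). The others there, PRPS2, TLR8 and TLR8-AS1, lay higher without CTCF, at 0.46, 0.55 and 0.42, under the fold threshold. Near VCL, ADK was at -0.59 and CAMK2G at 0.43, both under the fold threshold. The upper end there, 0.70, was C10orf55 (SE 0.48, adjusted p = 0.257, edgeR), which did not pass. The lower end near LSP1, -0.51, was MRPL23 (SE 0.45, adjusted p = 0.399, edgeR).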
